A study of Homo sapiens with 6 samples.

Results

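In LNCaP cells a stretch of chromosome 4 formed a dense block of contacts with a stretch of chromosome 6. A separate stretch of chromosome 4 formed another block with a stretch of chromosome 10. No such block was located between the regions of chromosomes 6 and 10 studied here. The regions described here were chr4:92000001-102000000, chr6:83000001-92000000 and chr10:92000001-100000000 (hg19). They held 675 bins of 40 kb, of 64693 bins with a contact within their chromosome in either map, and 674 of the 675 were usable. The regions were chosen by their interchromosomal contacts in these same maps, so the size of the enrichment is a description and carries no test.

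LNCaP is an established prostate cancer cell line with a rearranged genome. The cells were transfected with 20 nM of non-targeting siRNA (control) or of siRNA against CTCF, transfected again after 72 h and collected at 144 h. Hi-C, which cuts cross-linked chromatin with BglII, ligates the ends and sequences read pairs that join 2 places, was run on 2 control and 4 CTCF siRNA libraries, and each condition was pooled into 1 map. The labels number the CTCF siRNA libraries in a way that leaves unsaid whether they are 4 replicates or repeat libraries of 2. The control map held 26174874 read pairs, of which 52.2% lay within a chromosome (cis), and the CTCF siRNA map 87656408, of which 64.2% did. With 1 pooled map per condition, no difference between conditions could be set against the spread between replicates. Every 95% interval below covers counting error only.

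Contacts in Hi-C fall with the distance between 2 places along one DNA molecule, and contacts between different chromosomes are sparse for any single pair of places. Where a rearrangement joins 2 chromosomes, contacts between them therefore form a block that starts sharply at a corner, decays away from it, and fills only the quadrant of the sides that are joined. Such a joint also places parts of different topologically associating domains (TADs) next to each other. TADs are stretches within which contacts are more frequent than across their borders, and the architectural protein CTCF is known to bind at many of their boundaries.

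Read pairs in these maps come from the ends of BglII fragments and were binned at 40 kb, so the bin limits how finely a corner can be placed. The 4 corner bins described below held 10 to 16 BglII sites each, against a median of 11 (quartiles 8 and 13) over 63020 usable bins. The sites nearest to the bin edge on each side are shown because they are where the last joined and the first other bin could be sampled. They do not bracket the break, which may lie anywhere in or next to these bins. Each line gives 30 bases of the reference plus strand (GRCh37, the sequence of hg19), with the BglII site in capitals. At the join of chromosomes 4 and 6 the chromosome 4 bins met between the first and the second line, and the chromosome 6 bins between the third and the fourth. None of these 4 stretches lay in a protein-coding gene.
Joined side, chr4:98002477-98002506: ttttataatgttAGATCTtacatttatgtt
Other side, chr4:97998067-97998096: aagttctgaaaaAGATCTagttaactatag
Joined side, chr6:87555992-87556021: aaagcagagaggAGATCTtgagctatgatt
Other side, chr6:87561385-87561414: ctttcctttagcAGATCTgtatttctttcc

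At the join of chromosomes 4 and 10 the corresponding chromosome 4 sites both lay in introns of UNC5C. The chromosome 10 sites lay in PDE6C, the joined one in an intron and the other in an exon.
Joined side, chr4:96312184-96312213: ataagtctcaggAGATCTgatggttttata
Other side, chr4:96325350-96325379: cacatttcagttAGATCTaaccatcaaagg
Joined side, chr10:95398833-95398862: aatctctcctgcAGATCTgtctggtaggcc
Other side, chr10:95400691-95400720: gaagtactacacAGATCTcgaagcctttgc

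Between the chromosome 4 and 6 regions the control map held 1186 contacts where 266 were expected from the interchromosomal totals of the bins, a ratio of 4.45 (95% interval 4.204 to 4.714). The CTCF siRNA map held 2843 where 649 were expected, a ratio of 4.38 (4.22 to 4.55). Between chromosomes 4 and 10 the ratio was 2.77 (2.60 to 2.95) in control, from 971 contacts, and 4.29 (4.16 to 4.43) in CTCF siRNA, from 3843. Between chromosomes 6 and 10 it was 1.08 (0.957 to 1.22) in control and 0.844 (0.775 to 0.918) in CTCF siRNA, and no bin pair held more than 2 contacts. Chromosome 4 thus took part in both blocks, and between the regions of chromosomes 6 and 10 no block was detectable at this depth.

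Calls of single bin pairs describe the same contacts bin by bin. A bin pair was called where it held at least 5 contacts and at least 10 times the expected number. Over all interchromosomal pairs of usable bins, 9.57e-06% were called in control and 9.93e-05% in CTCF siRNA, 181 and 1877 of 1891148538. Between the chromosome 4 and 6 regions 5 of 56000 pairs were called in control and 52 in CTCF siRNA, which is 0.00893% and 0.0929%. Between chromosomes 4 and 10 the numbers were 13 and 124 of 50000, or 0.026% and 0.248%. All of these calls lay in the joined quadrant described below, and none of the 44800 pairs between chromosomes 6 and 10 was called in either map. The regions were chosen and the quadrants fitted on these same contacts. Nothing is therefore read from the distance to the background or from where the calls lay.

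Corners were located by fitting the interchromosomal background plus a share of the cis decay of the same map. In each of 4 orientations the fit ran over a coarse grid of bin pairs, then over every bin pair near the best of them. For chromosomes 4 and 6 the best corner was the same in both maps. On chromosome 4 the first joined bin was 98000001 to 98040000 and the joined side ran to higher positions, and on chromosome 6 the last joined bin was 87520001 to 87560000 and the joined side ran to lower positions. For chromosomes 4 and 10 the corner was again the same in both maps, at 96280001 to 96320000 on chromosome 4 and 95360001 to 95400000 on chromosome 10, with the lower side of both chromosomes joined. The support interval, the positions within 2 log-likelihood units of the best, was the corner bin alone on all 4 sides in both maps. Adding the join raised the log-likelihood by 1797 and 1194 units in control and by 4185 and 6411 in CTCF siRNA. For chromosomes 6 and 10 the best corner gained 6.64 units in control and 8.63 in CTCF siRNA, at different bins. Both were under the 10 units set for keeping a second corner, and no join was located.

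**Figure D1:**
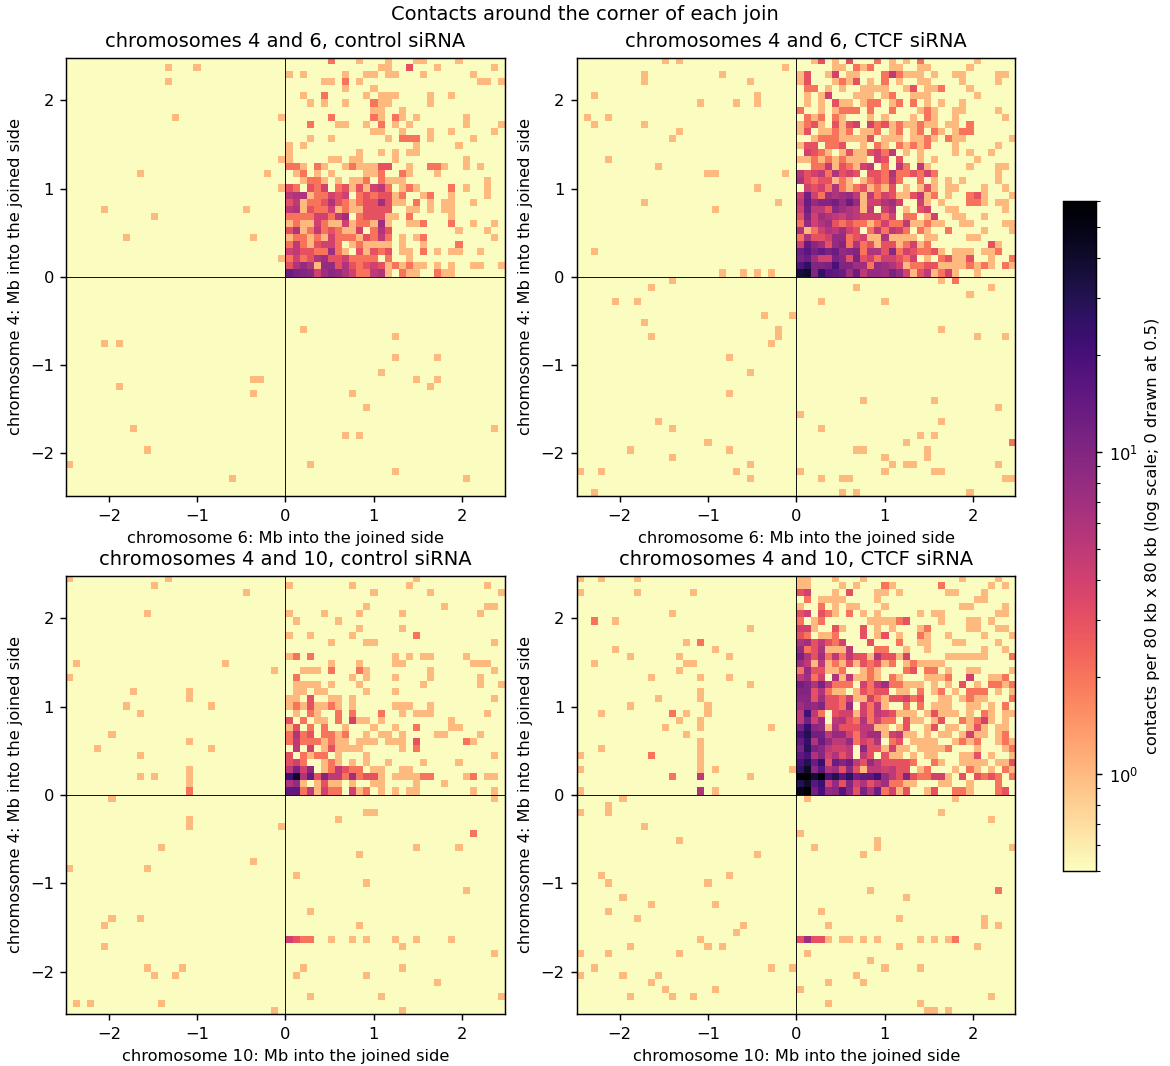
Contacts per 80 kb by 80 kb square around the corner of each join (rows) in the control and CTCF siRNA maps (columns), on a log colour scale with 0 drawn at 0.5. Each axis gives the distance from the corner in Mb, positive into the joined side. Contacts fill the upper right quadrant of each panel, and a short horizontal line in the lower right of both chromosome 4 and 10 panels marks 1 chromosome 4 bin described in the text.

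The edge of each block was as sharp as the bins allow. In control the chromosome 4 corner bin of the first join held 36 contacts with the joined 1 Mb of chromosome 6, the next bins inward held 51 and 41, and the bin outward held 0. In CTCF siRNA these values were 108, 91, 79 and 0. Over the 25 joined bins of chromosome 4 the control counts ran from 9 to 51 with a median of 17, and over the 24 bins beyond the corner none held more than 1. On chromosome 6 the corner bin held 15 contacts in control and 40 in CTCF siRNA, and the bin outward held 1 and 0. The joined and the other bins did not overlap on either chromosome in either map. The corners and joined sides were fitted to these same contacts, so this split describes the fit and is no separate check of it.

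The chromosome 4 and 10 block had the same form, with a peak inside it. Its chromosome 4 corner bin held 27 contacts with the joined 1 Mb of chromosome 10 in control and 125 in CTCF siRNA, against 0 and 1 in the bin outward. The fifth bin inward from the corner bin, 96080001 to 96120000, held 80 and 245, more than any other bin of the 25. On chromosome 10 the corner bin held 33 and 130 and the bin outward 0 in both maps, and the most contacts, 55 and 254, lay in the bin 95240001 to 95280000. In CTCF siRNA the joined bins of chromosome 10 ran from 10 to 254 and those beyond from 0 to 2. In control the joined bins reached down to 0 on chromosome 10 and to 2 on chromosome 4, where the highest bin beyond also held 2, so these ranges met or overlapped.

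**Figure D2:**
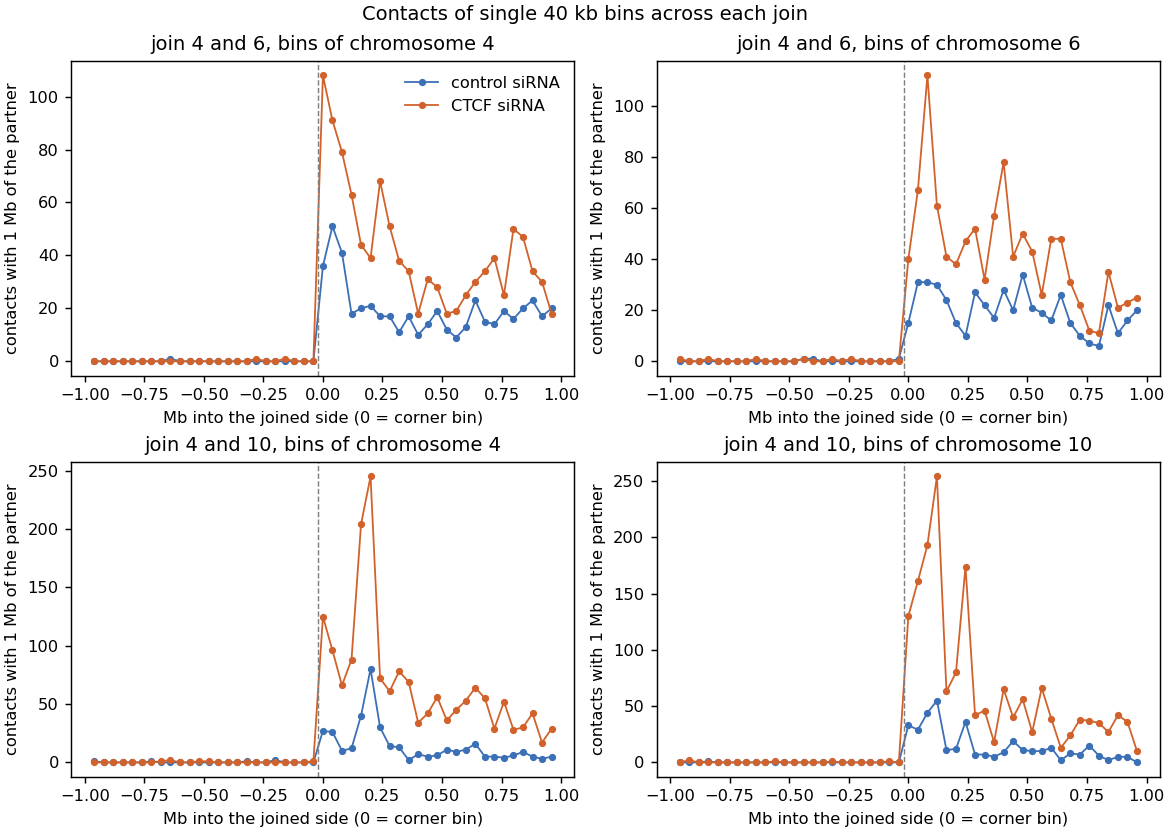
Contacts of single 40 kb bins with the joined 1 Mb of the partner chromosome, by distance into the joined side in Mb, for each side of each join. Points are bins, blue the control and orange the CTCF siRNA map, not scaled for depth, and the dashed line is the outer edge of the corner bin. Counts fall to between 0 and 2 beyond the line in all 4 panels, and the chromosome 4 and 10 join shows peaks of 245 and 254 contacts in CTCF siRNA away from the corner.

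Few genes lay at the chromosome 4 and 6 join. Neither corner bin overlapped a protein-coding gene (GENCODE on GRCh37). On the joined side of chromosome 4 the nearest was STPG2 (4, 98105244 to 99064627), 105 kb from the corner edge, a gene named for the sperm-tail PG-rich repeat. The nearest below was PDHA2, an autosomal testis form of a pyruvate dehydrogenase subunit, 1237 kb away and on the other side. On chromosome 6 the nearest gene beyond the corner was HTR1E (6, 87647246 to 87726397), a serotonin receptor, 87.3 kb away and not on the joined side. The nearest on the joined side was the readthrough gene ENSG00000271793, 1172 kb away, which spans SYNCRIP, an RNA-binding protein, and SNX14, a sorting nexin. No protein-coding gene thus lay within 87.3 kb of either corner edge.

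The corner bins of the chromosome 4 and 10 join overlapped genes. The chromosome 4 corner edge fell inside UNC5C (4, 96083655 to 96470357, minus strand), a netrin receptor known from axon guidance, and the joined side kept its 3′ part. BMPR1B, a type I receptor for bone morphogenetic proteins, was the nearest gene further into the joined side, 240 kb from the corner edge, and PDHA2 lay 441 kb beyond it. The chromosome 10 corner bin overlapped PDE6C (10, 95372294 to 95425767, plus strand), the catalytic subunit of the cone photoreceptor phosphodiesterase, RBP4, the plasma carrier of retinol, and FFAR4, a receptor for long-chain fatty acids. RBP4 and FFAR4 ended 38.5 and 35.8 kb before the corner edge and PDE6C spanned it, so the joined side kept its 5′ part if the break lay near that edge. A break in the corner bin below 95372294 would lie outside PDE6C, and by the largest contrast between quadrants the control corner bin started at 95440001, past PDE6C and in FRA10AC1. CEP55 was the nearest gene further into the joined side, 111 kb away, and FRA10AC1 began 27.6 kb beyond the corner edge. The kept 5′ part of PDE6C and the kept 3′ part of UNC5C would then point the same way, if the corners are joined directly. Whether other pieces lie between them was not tested. Transcripts were not measured in these files.

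Relative to an interchromosomal expectation, the blocks of 1 Mb by 1 Mb at the corners stood far out. For chromosomes 4 and 6 the control map held 493 contacts where 4.23 were expected, a ratio of 116 (106 to 127), and the CTCF siRNA map 1061 where 9.93 were expected, a ratio of 107 (100.5 to 113). For chromosomes 4 and 10 the ratios were 67.8 (61.0 to 75.2) in control, from 361 contacts, and 116 (111 to 122) in CTCF siRNA, from 1716.

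Relative to cis contacts at the same distance the joins were weaker than an unbroken chromosome. Distances along the joined chromosome, here and below, take the corner bins as directly joined, which was not tested. From 80 kb to 1 Mb along the joined chromosome, contacts between chromosomes 4 and 6 reached 43.4% (38.7 to 48.5) of the cis decay of these chromosomes in control and 30.7% (28.5 to 33.0) in CTCF siRNA. Contacts between chromosomes 4 and 10 reached 33.0% (29.4 to 37.0) and 33.3% (31.5 to 35.1). With the decay of all autosomes the CTCF siRNA value for chromosomes 4 and 6 was 0.202 of that decay, in place of 0.307. Cis contacts across the same corners in the reference order, at the same distances, remained at 74.4% to 130% of the decay of their own chromosome in control and at 78.8% to 87.1% in CTCF siRNA. At the chromosome 4 and 6 join they were 130% (120 to 140) in control and 79.9% (75.2 to 84.7) in CTCF siRNA on chromosome 4, and 95.1% and 87.1% on chromosome 6. At the chromosome 4 and 10 join they were 89.3% and 81.8% on chromosome 4, and 74.4% and 78.8% on chromosome 10. Contacts in the reference order thus continued across every corner, and whether joined and unbroken copies sat in the same or in different cells cannot be told apart in a pooled map.

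The decay of the 2 joins differed with distance. At the chromosome 4 and 6 join the control map rose from 31.5% (21.95 to 43.83) of the cis decay at 80 to 200 kb to 70.1% (62.8 to 78.1) at 1040 to 2000 kb and was 47.3% (41.4 to 53.8) at 2040 to 4000 kb. The CTCF siRNA map ran flatter, from 27.7% (22.4 to 33.8) through 43.2% (40.1 to 46.6) to 40.5% (37.3 to 43.95). The control map of the chromosome 4 and 10 join was highest at 240 to 400 kb, 46.9% (37.9 to 57.4), and was 17.2% (14.4 to 20.5) at 2040 to 4000 kb. The CTCF siRNA map fell less, from 38.0% (34.2 to 42.1) to 24.8% (22.9 to 26.7).

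**Figure D3:**
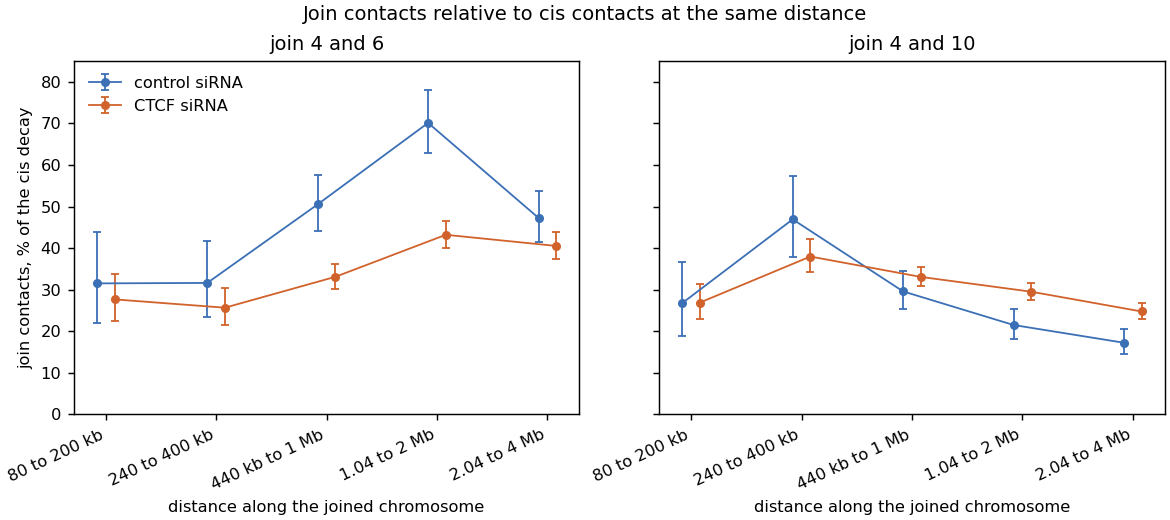
Contacts across each join as a percentage of cis contacts at the same distance on the same chromosomes, in 5 ranges of distance along the joined chromosome. Distances take the corner bins as directly joined. Blue is the control and orange the CTCF siRNA map, and bars are 95% Poisson intervals, which cover counting error only. At 80 to 200 kb the intervals of the maps overlap at both joins, and at 1040 to 2000 kb they do not, with control higher at the chromosome 4 and 6 join (70.1% against 43.2%) and lower at the chromosome 4 and 10 join (21.5% against 29.5%).

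The comparison of CTCF siRNA with control depended on the scale. With each block of 1 Mb divided by its interchromosomal expectation, CTCF siRNA over control gave 0.917 (0.823 to 1.02) at the chromosome 4 and 6 join and 1.71 (1.53 to 1.92) at the chromosome 4 and 10 join. Divided by the cis decay instead, the ratios were 0.648 (0.582 to 0.723) and 1.05 (0.935 to 1.18). In blocks of 400 kb the first ratio turned to 1.20 (0.969 to 1.49) by the interchromosomal expectation, so no direction is given for the chromosome 4 and 6 join on that scale. The maps differed in their cis share, and its part in these ratios was not tested. The ratio at the chromosome 4 and 10 join over that at the other compares both joins within the same maps. It was 1.87 (1.59 to 2.19) by the interchromosomal expectation, 1.62 (1.38 to 1.90) by the cis decay and 2.21 (1.88 to 2.59) in raw contacts, so on all 3 scales the chromosome 4 and 10 join was the higher of the pair in CTCF siRNA relative to control in blocks of 1 Mb. In blocks of 400 kb the same ratios were 1.19 (0.904 to 1.57), 1.05 (0.798 to 1.38) and 1.49 (1.13 to 1.95), and the first 2 intervals include 1. Cis contacts in the reference order also differed unequally between the maps from corner to corner, as given above. Whether the difference between the joins is particular to the joins was not tested.

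Next to the corners, the bins on the side that was not joined had lower medians of contacts with other chromosomes. With the chromosomes other than 4, 6 and 10 as partners, which leaves out the joins themselves, the 25 bins of chromosome 4 below the stretch between its corners had a median of 378 contacts in control, with values from 281 to 455. The 42 bins of the stretch itself, from 96320001 to 98000000, had a median of 205.5, from 123 to 309, and the 25 bins above it 320, from 214 to 459. In CTCF siRNA the medians were 910, 471 and 772. The stretch was lower than both neighbours in both maps, with overlapping ranges. On chromosome 6 the joined 1 Mb had a median of 331 and the 24 usable bins beyond it 183 in control, and 835 and 450 in CTCF siRNA. On chromosome 10 the joined 1 Mb had 341, the 19 bins from 95400001 to 96160000 had 192, and the 8 bins from 96160001 to 96480000 had 364 in control, and in CTCF siRNA the medians were 885, 503 and 975.5.

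As log2 of the median of all contacts per bin on the joined side over the other side, within 1 Mb, the step was 0.61 on chromosome 4 and 0.91 on chromosome 6 at the first join in control, and 0.66 and 0.81 in CTCF siRNA. The chromosome 4 and 10 join had steps of 0.90 and 0.54 in control and 1.07 and 0.58 in CTCF siRNA. All 8 medians were higher on the joined side. The lower quartile of the joined bins exceeded the upper quartile of the other bins at the chromosome 4 and 6 sides, by 0.14 to 0.42 on the log2 scale, and on chromosome 4 at the other join, by 0.67 and 0.72. On chromosome 10 these quartiles overlapped, at -0.08 in control and -0.03 in CTCF siRNA, and with 2 Mb on each side the chromosome 10 step was 0.30 in control and 0.06 in CTCF siRNA. Whether fewer copies of a stretch or fewer contacts per copy underlie these values was not tested, and both enter the expected numbers, because the expectation uses the bin totals.

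**Figure D4:**
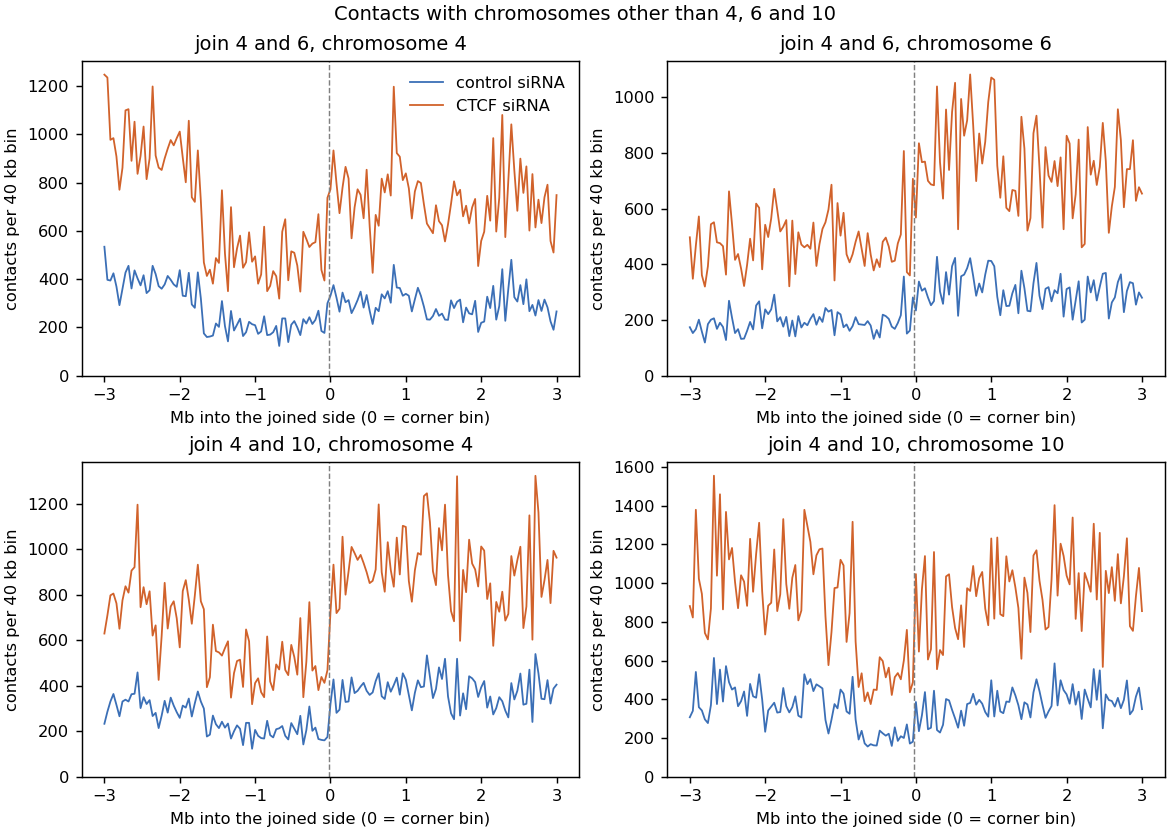
Contacts per 40 kb bin with chromosomes other than 4, 6 and 10, by distance into the joined side in Mb, for each side of each join. Blue is the control and orange the CTCF siRNA map, not scaled for depth, and the dashed line marks the outer edge of the corner bin. Counts step down on the side that is not joined, and on chromosome 4 and chromosome 10 they rise again further out.

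Of the corner bins, that of chromosome 10 had the lowest cis insulation value in both maps. Insulation is given as the log2 of observed over expected cis contacts across a bin over those within its flanks of 400 kb, so a lower value means fewer contacts across. For the first join it was -0.09 on chromosome 4 and -0.27 on chromosome 6 in control, which 43.3% and 33.2% of 58287 autosomal bins fell below. With flanks of 800 kb the chromosome 4 value turned positive in both maps, to 0.34 in control and 0.076 in CTCF siRNA. In CTCF siRNA the values were -0.16 and -0.25, with 28.8% and 23.3% of bins below. For the other join chromosome 4 had -0.26 in control and -0.35 in CTCF siRNA, with 33.3% and 18.3% below. The chromosome 10 corner bin had -0.77 in both maps, with 13.6% of bins below in control and 6.19% in CTCF siRNA. The order in control depended on the exact bin. In bins close to the corner bins the control value went down to -1.02 on chromosome 6 and to -0.85 on chromosome 10. In CTCF siRNA the lowest such values were -0.48 and -0.77.

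Over the 4 corner bins, 3 TADs called in control and 1 TAD called in CTCF siRNA were cut. The paper reports that TADs covered similar amounts of the genome in both conditions. The share of all bins inside a TAD is not given here, so nothing is read from these counts. At the first join the control TAD on chromosome 4 ran from 97300001 to 98980000 and was cut 700 kb from its lower edge, which left 980 kb with most of STPG2 on the joined side. No TAD of the CTCF siRNA list covered this corner, which lay in a gap of 3040 kb between TADs. The chromosome 6 TAD ran from 86300001 to 87740000 in the control list and from 86260001 to 87620000 in the CTCF siRNA list. The cut left 1260 and 1300 kb with SYNCRIP and parts of ENSG00000271793 and SNX14 on the joined side. HTR1E was on the other side in the control list and in no part of the CTCF siRNA TAD.

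The control TAD at the chromosome 4 and 10 join, on chromosome 4, ran from 96060001 to 97300000. The joined side kept 260 kb of it, with the end of BMPR1B and the 3′ part of UNC5C, and 980 kb with PDHA2 was on the other side. In the CTCF siRNA list a TAD ended at 96300000, inside the corner bin. The chromosome 10 corner bin lay between TADs in both lists. The TAD above it started at 95420001 in both, and the one below ended at 95300000 in control and 95260000 in CTCF siRNA.

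Contacts across the joins were then set against the control TADs. Between the kept parts at the chromosome 4 and 6 join, 98000001 to 99000000 on chromosome 4 and 86280001 to 87560000 on chromosome 6, control contacts reached 57.1% (52.6 to 61.9) of the cis decay, from 584 contacts. The part on chromosome 4 reached 43.8% (34.5 to 54.8) with the next TAD of chromosome 6, and the next TAD of chromosome 4 reached 45.5% (36.4 to 56.1) with the part on chromosome 6, while both next TADs reached 61.1% (43.8 to 82.9) with each other. In CTCF siRNA the kept parts reached 35.3% (33.4 to 37.4), against 33.9% (29.0 to 39.3), 45.4% (40.3 to 50.9) and 43.1% (34.3 to 53.4) for those further out. The ratio of the kept parts to these 3 blocks together was 1.21 (1.03 to 1.43) in control and 0.869 (0.785 to 0.963) in CTCF siRNA. It is given for the control TADs only. The kept parts lay nearer to the corner than these blocks, and the share of the cis decay changed with distance. Whether TADs have a part in this ratio was not tested. With the TADs of the CTCF siRNA list, which start further from the chromosome 4 corner, the order of the maps turned, to 33.0% (23.3 to 45.5) in control and 44.1% (37.6 to 51.4) in CTCF siRNA. The blocks further out then reached 53.8%, 49.5% and 39.4% in control, and 46.8%, 50.7% and 32.9% in CTCF siRNA. In control the block next to the corner was thus the lowest by this list, with intervals that overlap.

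The same ratio at the chromosome 4 and 10 join was 1.93 (1.52 to 2.45) in control and 1.34 (1.20 to 1.49) in CTCF siRNA, with the TAD nearest to the corner on chromosome 10 in place of a cut one. The kept chromosome 4 part and this TAD reached 42.5% (36.3 to 49.4) of the cis decay in control and 35.8% (33.1 to 38.6) in CTCF siRNA. With the TADs of the CTCF siRNA list the order of the maps turned here too, to 29.8% (26.5 to 33.6) and 32.5% (30.8 to 34.3), with intervals that overlap. With the control TADs, the next TAD of chromosome 4 reached 24.3% (19.6 to 29.8) and 31.2% (28.6 to 34.0) with it. The kept part with the next TAD of chromosome 10 reached 19.95% (11.6 to 31.9) and 17.6% (13.5 to 22.5), and both next TADs 16.4% (9.85 to 25.6) and 17.2% (13.5 to 21.5). Of all join contacts within 2 Mb, 38.7% (34.1 to 43.5) lay between the kept part and this TAD in control and 29.8% (27.9 to 31.7) in CTCF siRNA. The shares at the chromosome 4 and 6 join were 89.7% (87.1 to 91.9) and 84.4% (82.4 to 86.3). Both shares were lower in CTCF siRNA, and the decay alone would place 84.5% and 84.6% there at the chromosome 4 and 6 join and 25.3% and 25.9% at the other. One map per condition leaves the difference between any 2 maps of the same condition unknown.

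The bin pairs with the most contacts for their expectation named few places. Between chromosomes 4 and 6 only 4 pairs held at least 5 contacts in both maps. They joined chromosome 4 bins from 98000001 to 98120000 with chromosome 6 bins from 87440001 to 87520000, all at most 200 kb from each other along the joined chromosome. The first, 98000001 to 98040000 with 87440001 to 87480000, held 5 contacts in control and 12 in CTCF siRNA, 702 and 692 times the expected number.

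Between chromosomes 4 and 10, 13 pairs held at least 5 contacts in both maps. Of the 5 with the highest lower value, 4 shared the chromosome 4 bin 96080001 to 96120000, which holds the 3′ end of UNC5C. With the chromosome 10 bin 95280001 to 95320000, in CEP55, a gene known for its role in cytokinesis, it held 18 contacts in control and 25 in CTCF siRNA, 1961 and 770 times expected. With 95240001 to 95280000, in MYOF, a ferlin of the cell membrane, and CEP55, it held 12 and 33. With 95120001 to 95160000, in MYOF, it held 8 and 29, and with 95320001 to 95360000, in FFAR4 and RBP4, 7 and 20. These pairs lay 280 to 480 kb apart along the joined chromosome, if the corners are joined directly.

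The bins of these pairs were searched for a core of the CTCF motif, CCANNAGNNGGC, on both strands, because the siRNA targeted CTCF. CTCF binding was not analysed here. Of 63020 usable bins 58.6% held at least 1 match, so a match in a bin is common. The chromosome 4 bins held 2 and 1 matches and the chromosome 10 bins 0 to 2 each. They are shown with the match in capitals, 5′ to 3′ on the strand given (GRCh37).
UNC5C exon, chr4:96087256-96087285, plus: tgttgtacaCCACTAGATGGCagcatgcac
UNC5C intron, chr4:96111880-96111909, plus: catcagtcaCCAGAAGCAGGCcacctgcct
UNC5C intron, chr4:96272365-96272394, plus: ttttcttccCCATGAGATGGCatgttcaga
MYOF intron, chr10:95136309-95136338, plus: ctggctttaCCACTAGGAGGCacaagaaga
MYOF intron, chr10:95147028-95147057, plus: gaggggcatCCATGAGCTGGCtgtgctggc
CEP55 intron, chr10:95278473-95278502, plus: catagatagCCATCAGATGGCcagctggaa
FFAR4 and RBP4 introns, chr10:95357575-95357604, minus: aaggccactCCAAGAGTGGGCtgcatcctc

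The bins of the TAD edges that bound the kept parts of the chromosome 4 and 6 join, 98960001 to 99000000 and 86280001 to 86320000, held no match.

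A second corner was fitted between chromosomes 4 and 10 in both maps, at chromosome 4 bin 97960001 to 98000000 and the same chromosome 10 bin. The fit took the lower sides as joined. It raised the log-likelihood by 31.9 units in control and 29.3 in CTCF siRNA, above the 10 units set for keeping it. Its contacts came from this single bin, the last bin below the chromosome 4 corner of the other join, so they do not show which side of chromosome 4 was joined. With the joined side of chromosome 10 the bin held 15 contacts in control where 0.651 were expected, a ratio of 23.03 (12.89 to 37.98), and 24 in CTCF siRNA where 1.61 were expected, a ratio of 14.9 (9.55 to 22.2). The bins below and above it held 2 each in control, and 2 and 1 in CTCF siRNA. It held 0 contacts with the joined 1 Mb of chromosome 6 in both maps. For chromosomes 4 and 6 the second corner also gained over 10 units in both maps, 55.9 and 45.1, but at different bins inside the block, and gives no second position.

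The same bin contacted the joined part of chromosome 4 across the stretch between the corners. With the 1 Mb from 95320001 to 96320000 it held 38 contacts in control, 4.40 times (3.11 to 6.04) the cis decay, and 70 in CTCF siRNA, 2.81 times (2.19 to 3.55). The bin below held 6 and 15, and the bin above 4 and 18, all with intervals that include the cis decay. The bin thus held more contacts with this part of chromosome 4 than either neighbour did, in both maps.

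**Figure D5:**
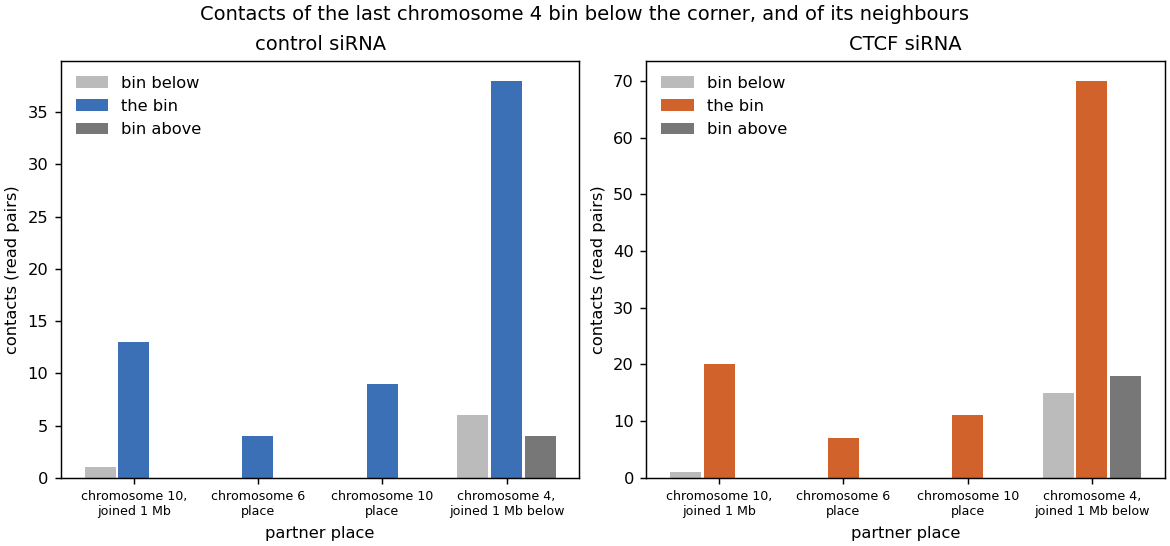
Contacts of the chromosome 4 bin just below the corner of the chromosome 4 and 6 join, and of the bins on each side of it, with 4 partner places, in the control (left) and CTCF siRNA (right) maps. Bars are read pairs in the pooled map, not scaled for depth. The bin stands above both neighbours at every place, with 38 against 6 and 4 contacts in control for the joined 1 Mb of chromosome 4.

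The members were then set against the rest of the genome, a step chosen after the data were seen. Interchromosomal pairs were called as above, and pairs over 2 Mb apart on 1 chromosome at 10 times the cis decay, which 0.00089% of all such autosomal pairs reached in control and 0.00805% in CTCF siRNA. With at least 1 member bin, 91 pairs of both kinds together were called in control and 589 in CTCF siRNA, 65 of them in both. Over all autosomal pairs of the second kind, 878 and 7940 were called. The number of pairs tested with a member bin is not given here, so nothing is read from these counts. The CTCF siRNA calls formed 58 groups of neighbouring pairs, and 11 of these held at least 5 calls and at least 1 pair also called in control. The joins described above were 2 of them, and 9 involved a place outside the regions.

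Places outside the regions contacted the same bins that bound the joins. The lower part of chromosome 4, from 95600001 to 96320000, contacted 159720001 to 159840000 of chromosome 6, 54 times in control, 131 times expected (98.3 to 171), and 227 times in CTCF siRNA, 190 times expected (166 to 216). The lower part of chromosome 10, from 94880001 to 95400000, contacted that same stretch of chromosome 6, to 159880000, 68 and 273 times, 206 (160 to 261) and 253 (224 to 285) times expected. The chromosome 4 bins from 96080001 to 96320000 contacted 86240001 to 86320000 of chromosome 10, in CCSER2, 30 and 57 times, 384 (259 to 548) and 300.1 (227 to 389) times expected. The single chromosome 4 bin below the other corner also reached these places, with 4 and 7 contacts at the chromosome 6 place and 9 and 11 at the chromosome 10 place, where its neighbours had 0 in both maps.

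The chromosome 10 bins where contacts rose again beyond the corner had partners outside the regions, and the rise went on above 96480000. Those from 96200001 to 96480000 overlapped TBC1D12, HELLS, a chromatin remodelling ATPase, and CYP2C18, a cytochrome P450. They contacted 160080001 to 161200000 of chromosome 6, with 189 contacts in control and 648 in CTCF siRNA, 108 (93.3 to 125) and 129 (119 to 139) times expected. That chromosome 6 stretch holds SOD2, the mitochondrial superoxide dismutase, IGF2R, the mannose 6-phosphate receptor, and PLG, plasminogen, among 13 genes. The bins from 96160001 to 96480000 contacted 100760001 to 101240000 of the same chromosome, with 131 and 635 contacts, 11.6 (9.70 to 13.8) and 13.3 (12.2 to 14.3) times the cis decay. The bin 96440001 to 96480000 also contacted the joined 1 Mb of chromosome 4, with 6 contacts in control and 17 in CTCF siRNA, where the other 39 bins of the 1.6 Mb beyond the corner had at most 1 and 2.

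On chromosome 10 the bins from 96160001 to 97640000 contacted 85400001 to 86240000 with 490 and 2750 contacts, 12.1 (11.1 to 13.2) and 17.1 (16.4 to 17.7) times the cis decay, the group with the most calls, 180 in CTCF siRNA. The bins from 95120001 to 95440000 contacted 86120001 to 86280000, with 28 and 92 contacts, and the corner bin of chromosome 10 alone contacted 100960001 to 101280000, in HPSE2, CNNM1 and GOT1, with 12 and 79, 14.7 (7.60 to 25.7) and 21.8 (17.2 to 27.1) times the cis decay. The remaining group lay apart from both joins. The last bins of the chromosome 6 region, 91880001 to 92000000, contacted 103200001 to 103600000 of chromosome 10, with 35 and 241 contacts, 139 (96.8 to 193) and 327 (287 to 371) times expected. This chromosome 10 stretch holds FGF8, a fibroblast growth factor, and BTRC, a substrate adaptor of a ubiquitin ligase, among 8 genes.

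The groups named here were chosen on their contacts, and the order of the pieces along the rearranged chromosomes was not derived.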

How the data were processed

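Hi-C of LNCaP cells was read from 1 pooled contact map and 1 TAD list per condition. Per the methods and the submitters' processing notes, the authors ran HiCUP with Bowtie 1.1.0 on hg19, used SAMtools 1.2 and Picard 1.121, pooled libraries at 40 kb and called TADs from a directionality index. The deposited values are read-pair counts times a correction factor in part of each chromosome. Pairs with no factor, which include every pair of 2 members, were 100% whole numbers, exact to the deposited digits. The factor sat at the same positions of every chromosome, and whether that was intended is not known. Division by it gave whole numbers, within 0.010 plus 0.05% of the value, for 99.99% or more of values with 1 factor but only 87.1% (control) and 87.7% (CTCF siRNA) with 2. The latter were rounded and enter only totals, the decay and the background. Bins needed 10% of the chromosome's median cis count in both maps. Expected interchromosomal contacts were proportional to the product of bin totals. The cis decay was averaged over the join's chromosomes, with bins weighted by interchromosomal totals. Poisson and binomial intervals are exact. The corner fit was tested on simulated data, where the 10-unit limit, set for keeping a second corner, was at times passed without a join. Python 3.11.15, NumPy 2.4.6, SciPy 1.17.1 and numba 0.67.0 were used.

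Genes were named by rule: those overlapping a corner bin, the nearest on each side and all in a TAD that holds the corner. Bin pairs named were the 5 per region pair with the highest lower ratio and at least 5 contacts in each map. Genes at places outside the regions were named after their values were seen. The members, lists and rules were chosen with earlier results of these data known. Libraries are pooled, and intervals cover counting error only.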

Additional observations from a re-analysis of the deposited data

How the results depend on the processing

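No paired analysis was possible because each condition was deposited as 1 pooled map, and no library could be left out. Corner positions stayed at the same bin under a power-law decay and within 2 Mb of the corner, and when the CTCF siRNA map was thinned 5 times to the cis count of control, except that 1 draw put the chromosome 6 corner at 87480001. By the largest contrast between quadrants the chromosome 6 corner moved to 87480001 in control, the chromosome 4 corner of the chromosome 4 and 10 join to 96400001 in both maps, and its chromosome 10 corner to 95440001 in control and 95400001 in CTCF siRNA.

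The ratio to the interchromosomal expectation depended on the block. At the chromosome 4 and 6 join it was 191 (control) and 229 (CTCF siRNA) in blocks of 400 kb and 53.5 and 50.01 in blocks of 2 Mb, and at the chromosome 4 and 10 join 224 and 319.7, and 21.6 and 41.9. With the mean of bin pairs of the same chromosomes as expectation it was 98.7 for CTCF siRNA at the first join and 87.9 and 165 at the second. The share of the cis decay at the first join was 0.371 and 0.202 with the decay of all autosomes, 0.316 and 0.265 at 80 to 400 kb, and 0.598 and 0.378 at 400 kb to 2 Mb. At the second it was 0.386 in control at 80 to 400 kb, 0.253 and 0.312 at 400 kb to 2 Mb, 0.268 in CTCF siRNA with all autosomes, and 0.404 and 0.479 without bin weights, an alternative added after the data were seen. The ratio of CTCF siRNA to control at the first join was 0.648 by cis contacts at the same distances, 0.643 by all read pairs, 0.522 by all cis contacts and 1.20 in blocks of 400 kb. At the second it was 1.05, 1.42, 1.15 and 1.43 in that order, and 1.94 in blocks of 2 Mb. By the interchromosomal expectation, the scale of the 1.20, the direction at the first join thus turned with the block size. It was 0.917 in blocks of 1 Mb, and both intervals include 1. By the cis decay the ratio stayed below 1 in every range of distance. It ran from 0.616 (0.540 to 0.705) at 1040 to 2000 kb to 0.878 (0.590 to 1.33) at 80 to 200 kb, and some intervals include 1.

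With flanks of 800 kb the insulation value of the chromosome 4 corner of the first join was 0.335 in control and 0.0757 in CTCF siRNA, with the sign turned in both, and that of the second -0.67 in control. With TADs of the CTCF siRNA list the contacts between the TADs joined were 0.330 and 0.441 of the cis decay at the first join and 0.298 and 0.325 at the second, over other stretches, since that list has no TAD at the first chromosome 4 corner. All 24 alternatives of the coverage step kept its direction, and the TAD counts and the calls at 20 times expected did not change. The named bin pairs stood at 334 to 1961 times expected, so the setting of 20 times could hardly remove such a call and is no check of it. Causes were not tested beyond these settings. The control map was the shallower, which limits its calls of bin pairs.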
